A study of Rattus norvegicus with 4 samples.

Results

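Translation factors and 3 tRNA synthetases were followed across the 4 arrays of a study of Omomyc, a dominant-negative form of the Myc oligomerization domain. The members are the probe sets of an Affymetrix rat expression array whose single annotated gene symbol starts with Eif or Eef and a digit, or names lysyl-, threonyl-, valyl- or arginyl-tRNA synthetase. Of 8740 probe sets other than manufacturer controls, 46 met this rule, and they measure 29 genes of 4736 with a probe set of a single symbol. None measured arginyl-tRNA synthetase. The cells are Rat1, an immortalized rat fibroblast line, stably infected with a retrovirus that is empty (Rat1-control) or that produces Omomer, the fusion of Omomyc to a tamoxifen-responsive estrogen receptor (Rat1-Omomer). Both lines received 4-OHT, the active form of tamoxifen, so that the comparison of lines is one of Omomer with no Omomer under the same drug. All cells spent 48 h in 0.1% serum, and RNA was taken at 0 min and at 90 min after a switch to 10% serum. Each of the 4 conditions has 1 array and no replicate, so that the spread between cultures is unknown and no test was made. The lines are called control and Omomer from here on. A label field on infection contradicts the title for 2 of the 4 samples, Omomer at 0 min and control at 90 min, and the titles were followed.

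Protein synthesis runs in steps, each with its own factors. eIF2 brings the initiator tRNA to the small ribosomal subunit, and eIF2B recharges eIF2 with GTP. eIF3, a large scaffold of many subunits, holds the initiation complex together, while the eIF4 factors recognize the mRNA cap and unwind the leader. eIF5 and eIF5B act at start codon selection and subunit joining. Elongation needs eEF1, which delivers aminoacyl-tRNA, and eEF2, which moves the ribosome along. tRNA synthetases charge tRNAs with their amino acids. Myc is known to raise ribosome production and translation, and several genes of this machinery have been described as its targets, which is the question these members bear on in cells where Omomyc interferes with Myc.

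The values are average differences (how much brighter the matched probes of a set were than their mismatched partners, on average) and are not comparable between probe sets. A floor of 1048, which is 2 times the noise SD of 524 estimated from the values below 0, was set under all values before ratios were taken. A ratio with 1 value under the floor is a bound, and a probe set with both values under the floor has no ratio. Of the 46 members, 32 lay above the floor on all 4 arrays and 43 on at least 1. The noise differed between arrays, and that of the Omomer 90 min array alone would set a floor of 1228, the highest of the 4. This array also had the brightest top end, with a 99th percentile of 72057 against 43961 to 54800 on the others. The SD of log2 ratios between probe sets of 1 gene was used to show how far such probe sets disagree. Because they share the same arrays, this SD leaves out the spread between cultures and hybridizations. Over 320 genes it was 0.31 for control 90 min over 0 min and 0.61 for Omomer over control at 90 min. Fibroblast markers were present, with 20 of 22 probe sets above that floor on each array and their summed value between 671169 and 908861, whereas all 6 epithelial and all 3 endothelial probe sets were under the floor on every array. Lum and Pdgfrb, 2 of the 10 fibroblast markers, were also under the floor on every array. Of other lists, 3 of 4 leukocyte, 3 of 4 skeletal muscle and 7 of 8 neuron probe sets were under it throughout. The exceptions were 1 of Ptprc, which lay at the floor with 1040 to 1097, Myh1, an EST probe set of the kind set apart next, with 6720 and 6449 at 0 min and 4584 and 608 at 90 min in control and Omomer cells, and 1 of Snap25, with 3226, 3787, 3253 and 6396 in that order. The part of such cells in the results was not tested.

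Probe sets built from expressed sequence tags (EST) whose IDs begin with rc_AA89, rc_AA87, rc_AA85, rc_AA80 or rc_AA79, here the 5 EST series, behaved differently from the rest on the Omomer 90 min array and are given apart. They hold 1744 of all probe sets and 12 of the members. The other 34 members measure 22 genes, 7 genes are measured by the EST series alone, and 2 genes by both. A difference of at least 3-fold, the threshold of the study, was called.

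Outside the EST series, translation factors differed little as a group. In RNA of whole cultures, fewer cells that express a gene and less RNA per cell cannot be told apart. In control cells at 90 min against 0 min, none of 29 members with a ratio was at least 3-fold higher and 1 was at least 3-fold lower, against 2.16% and 1.76% of all probe sets outside the series. Between the starved lines, no member reached 3-fold in either direction, against 0.334% higher and 0.601% lower. In Omomer cells at 90 min against control cells at 0 min, 2 of 30 were higher (Eef1a1 and Eif5, both by their dim probe sets) and 2 lower (Eif3m and Eif2ak2), against 3.38% and 4.36%. Against control cells at 90 min the counts were again 2 and 2 of 30, against 2.57% and 3.3%, and against Omomer cells at 0 min they were 0 and 1 of 30, against 3.55% and 3.7%. The median log2 ratio of these 30 members at 90 min, Omomer over control, was 0.29, next to 0.32 for all probe sets outside the series.

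Within the EST series, none of the 12 members reached 3-fold in control cells at 90 min, against 1.23% of all series probe sets higher and 1.94% lower, or between the starved lines, against 0% and 0.203%. On the Omomer 90 min array, 5 of the 12 were at least 3-fold lower than in control cells at the same time, where 27.2% of all series probe sets were. None was higher, against 1.01%. The same 5 were lower against both 0 min arrays, where the series gave 28.9% against control and 29.6% against Omomer cells, and again none was higher, against 0.831% and 0.725%. The 5 measure the eIF3 subunits Eif3b and Eif3d, and the synthetases Kars1 and Tars1. Over all 12 members the median log2 ratio at 90 min between the lines was -0.53, next to -0.69 for all EST series probe sets. Over all members in and outside the series, 2 were at least 3-fold higher and 7 lower at 90 min between the lines, against 2.22% and 8.57% of all probe sets with a ratio. Against the control 0 min array the counts over all members were also 2 and 7, against 2.8% and 9.95%, and against the Omomer 0 min array 0 and 6, against 2.9% and 9.65%. In the comparisons without the Omomer 90 min array they were 0 and 1 with serum in control cells, against 1.93% and 1.81%, and 0 and 0 between the starved lines, against 0.251% and 0.503%.

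**Figure D1:**
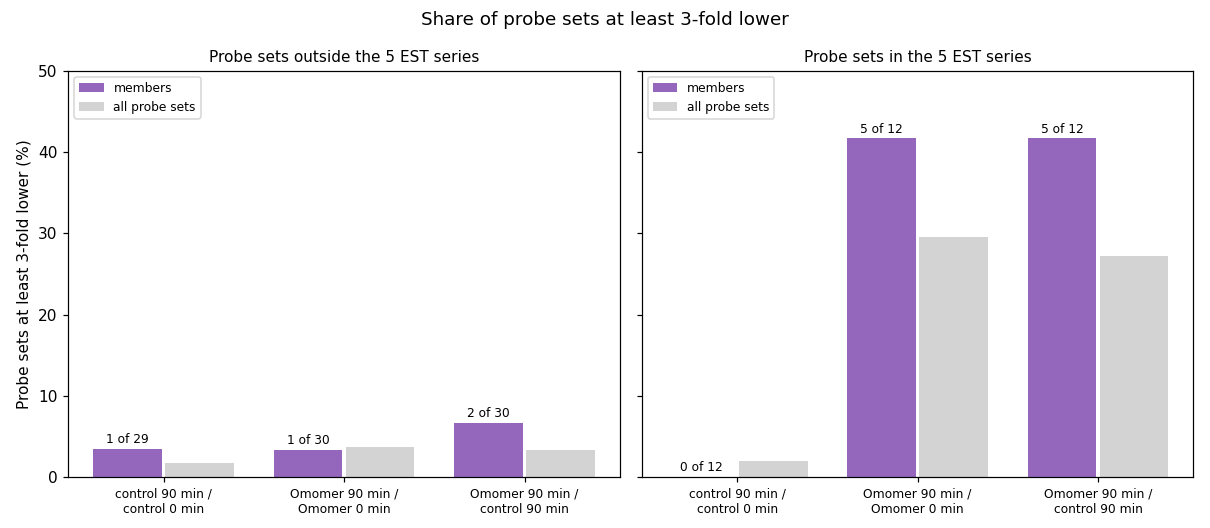
Share of probe sets at least 3-fold lower (y axis, %) in 3 comparisons (x axis), for members (purple, with the count above each bar) and for all probe sets with a ratio (grey), outside (left) and in (right) the 5 EST series. In the EST series 5 of 12 members were lower in both comparisons that use the Omomer 90 min array, beside 29.6% (over Omomer 0 min) and 27.2% (over control 90 min) of all series probe sets.

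Because the study asks about Myc binding at E-boxes, the promoters of the member genes were read for CACGTG, the hexamer bound by Myc with Max, which reads the same on both strands. A RefSeq window of 300 bases (250 before and 50 after the gene's start, rat build GRCr8) was given for 27 of the 29 genes. The hexamer stood in the windows of 7 of these 27 genes (25.9%), and 6.42% of all 33469 RefSeq windows hold it. The first share counts genes and the second counts windows, not limited to genes on the array. They were not compared by a test. The 7 were Eef2, Eef2k, Eif3b, Eif4e, Eif4h, Tars1 and Vars1. In Eif4e it occurred 2 times, 237 and 80 bases before the start, in Eif4h 168 bases before it, and in Tars1 7 bases into the transcript. The 100 bases before the start are shown for the 5 genes that hold it there, with the hexamer in capitals, because these genes took different courses on the arrays. They lie at chr12:19334769-19334868 (minus strand) for Eif3b, chr7:9189239-9189338 (minus strand) for Eef2, chr2:229740653-229740752 (plus strand) for Eif4e, chr1:184824320-184824419 (plus strand) for Eef2k and chr20:3824952-3825051 (minus strand) for Vars1.
Eif3b: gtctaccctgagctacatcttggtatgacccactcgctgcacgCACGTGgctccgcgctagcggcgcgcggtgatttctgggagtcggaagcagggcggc
Eef2: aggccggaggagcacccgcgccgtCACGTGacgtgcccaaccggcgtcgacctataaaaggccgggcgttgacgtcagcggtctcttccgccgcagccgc
Eif4e: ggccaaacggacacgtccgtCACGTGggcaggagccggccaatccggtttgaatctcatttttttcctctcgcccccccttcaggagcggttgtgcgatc
Eef2k: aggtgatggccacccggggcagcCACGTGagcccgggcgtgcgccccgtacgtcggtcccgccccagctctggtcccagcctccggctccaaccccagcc
Vars1: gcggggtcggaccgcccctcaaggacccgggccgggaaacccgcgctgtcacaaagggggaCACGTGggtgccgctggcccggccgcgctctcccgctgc
Eif3b was at least 3-fold lower in Omomer cells at 90 min and Eef2 was not lower by any of its probe sets, and the hexamer stands 57 and 76 bases before their starts. Of the other genes with a probe set at least 3-fold lower between the lines at 90 min, Tars1 holds the hexamer. Eif3d, Eif3m, Kars1 and Eif2b3 have none in their windows, and neither has Eif2ak2, called lower against control cells at 0 min. A match of letters is a description of the window and says nothing about binding.

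Among members outside the EST series, Eif3m, a subunit of the eIF3 scaffold, was 1 of 2 that were at least 3-fold lower in Omomer than in control cells at 90 min. Its values were 7459 in control and 8253 in Omomer cells at 0 min, and 7013 and 2174 at 90 min. The Omomer 90 min array was the low one, and the other 3 lay close together. The value there was 3.23-fold lower than in control cells at the same time and 3.80-fold lower than in Omomer cells at 0 min, whereas serum left control cells within 1.06-fold. Under quantile normalization Eif3m was 2.97-fold lower than in control cells at 90 min, just under the threshold. This probe set is made from an EST whose ID begins with rc_AA68. The array holds 9 probe sets with that start, and of 7 with a ratio, Eif3m included, 2 were at least 3-fold lower at 90 min between the lines. The median log2 ratio of these 7 was -0.87, next to -0.69 for all EST series probe sets and 0.32 for all outside the series. Whether the series it belongs to has a part in its value was not tested.

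The factors around eIF2, which decide how much initiator tRNA reaches the ribosome, were mostly close between the lines. Eif2s1, the alpha subunit of eIF2 and the target of its kinases, read 6779 and 8013 at 0 min and 10246 and 11805 at 90 min in control and Omomer cells. Both lines were higher with serum, by 1.51-fold and 1.47-fold, and differed by 1.15-fold at 90 min. Eif2b1, the alpha subunit of eIF2B, was 1.79-fold higher with serum in control cells by its brighter probe set, which read 2467, 4000, 4411 and 4591 in the order just given, and 1.57-fold higher by the other. Its brighter probe set was already 1.62-fold higher in starved Omomer cells. Eif2b2, the beta subunit, differed by at most 1.45-fold in any comparison, with values from 3960 to 5730. Eif2b4, the delta subunit, was the one eIF2B subunit with a lower value with serum in control cells, 3818 and then 2538 (a log2 ratio of -0.59), and in Omomer cells it read 4194 and 4263. Eif2b5 was under the floor on all arrays.

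Eif2b3, the gamma subunit of eIF2B, gave different answers by different probe sets. The brightest, outside the EST series with an ID that begins with rc_AI63, read 2111 in control and 2156 in Omomer cells at 0 min, 4687 in control and 756 in Omomer cells at 90 min. By it the gene was 2.22-fold higher with serum in control cells and at least 4.47-fold lower in Omomer than in control cells at 90 min, the other of the 2 lower members. As a log2 ratio this bound was -2.16. It came to -1.93 with the floor of the Omomer 90 min array alone. At 2 times the floor it came to -1.16 and was not called. The next probe set read 796, 1825, 2505 and 2045 in the same order, and was only 1.22-fold lower in Omomer cells at 90 min. The dimmest was above the floor on 1 array, at 1426 in control cells at 90 min. All 3 were highest on the control 90 min array, but they disagree on the size of the difference between the lines. Of the 151 probe sets with the rc_AI63 start and a ratio, 3.31% were at least 3-fold lower in that comparison.

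Of the eIF4 factors, the one that differed most was Eif4ebp1, which encodes 4E-BP1, the protein that holds eIF4E away from the cap complex. Its brightest probe set read 8931 in control and 11988 in Omomer cells at 0 min, and 8012 and 11861 at 90 min. A second, made from the same sequence, read 7856, 11815, 6751 and 13842, and the dimmest 2230, 3772, 1518 and 4511. By all 3 the Omomer values lay above both control values at either time. The lines differed at 0 min by 1.34-fold to 1.69-fold, and at 90 min by 1.48-fold, 2.05-fold and 2.97-fold, all under the 3-fold threshold. With serum it was lower in control cells by 1.11-fold to 1.47-fold, and in Omomer cells it stayed between 1.01-fold lower and 1.20-fold higher. Under quantile normalization the dimmest came to 3.03-fold at 90 min and so passed the threshold.

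Eif4e, the cap-binding protein itself, read 4114 and 4689 at 0 min and 6559 and 5990 at 90 min in control and Omomer cells, 1.59-fold and 1.28-fold higher with serum. The lines stood within 1.14-fold of each other at both times. Eif4a2, an RNA helicase, gave 9085 to 10978 by one probe set and 9025 to 10169 by the other, and differed by at most 1.21-fold in any comparison. These probe sets were built on 1 sequence, and the manufacturer marks 1 of them as shared within a gene family, so that the close relative Eif4a1 may add to it. Eif4h, which stimulates the helicase, read 6949, 5986, 7142 and 8702 outside the EST series and was 1.22-fold higher in Omomer cells at 90 min.

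Eif5, which triggers GTP hydrolysis on eIF2 at the start codon, was higher with serum in both lines. Its brighter probe set read 6470 and 6458 at 0 min in control and Omomer cells, and 11004 and 14396 at 90 min. That is 1.70-fold higher with serum in control and 2.23-fold in Omomer cells. The dimmer probe set was under the floor in both control arrays, at 976 and 901, and read 1787 and 3663 in Omomer cells, at least 3.49-fold higher at 90 min than in control cells. It was thus 1 of the 2 members called higher, but with the floor of the Omomer 90 min array alone the bound was 2.98-fold. Eif5b, the subunit-joining GTPase, read 1946, 2141, 2848 and 3644, and was 1.46-fold higher with serum in control and 1.70-fold in Omomer cells.

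Eef1a1, Eef2 and Eef1g were among the brightest probe sets of the array, and as deposited their values were highest on the Omomer 90 min array. Eef1a1, which carries aminoacyl-tRNA to the ribosome, read 39189 in control and 38382 in Omomer cells at 0 min, and 46987 and 73494 at 90 min. Eef2, the translocase, read 39379, 37351, 46405 and 68332 by its brightest probe set, and 29118, 29199, 29513 and 36394 by another. Eef1g, a subunit of the exchange factor of eEF1A, read 38850, 39035, 38713 and 49131. At 0 min the lines differed by at most 1.05-fold by these 4 probe sets. At 90 min they were 1.56-fold, 1.47-fold, 1.23-fold and 1.27-fold higher in Omomer than in control cells. The top end of that array was brighter as a whole, and after quantile normalization the 4 log2 ratios were 0.27, 0.22, 0.20 and 0.18. Under the same normalization the direction of Eef1g turned against the 0 min arrays, with log2 ratios of -0.07 over control and -0.17 over Omomer cells, and the second Eef2 probe set came to 0.02 over Omomer cells at 0 min. The rank of Eef1a1 on the array was at the 98.4 percentile in control and at the 99.2 percentile in Omomer cells at 90 min.

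A second Eef1a1 probe set was far dimmer. It was under the floor in control cells at 0 min and at 90 min, with 845 and 879, and read 2110 and 3655 in Omomer cells. At 90 min it was at least 3.49-fold higher in Omomer cells, the other member called higher, with a bound of 2.98-fold at the floor of that array alone. It is named on both gene lists that the study chose on these same arrays, the one for higher and the one for lower values in Omomer cells, and the study's text counts Eef1a1 among the lower genes, which is opposite to the direction of the deposited values of both Eef1a1 probe sets. Since those lists were chosen on these arrays, its difference is not independent evidence. Eef1a1 has many near-identical copies in the genome, which may add to either probe set. Eef1a2, the isoform of muscle and neurons, was below 0 on all 4 arrays.

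Eif2ak2 and Eef2k, kinases that slow translation, had the lowest serum ratios of all members in control cells. Eif2ak2 encodes PKR, which phosphorylates eIF2 in response to double-stranded RNA and is induced by interferon. It read 4515 in control and 2903 in Omomer cells at 0 min, and 1085 and 1236 at 90 min, so that both lines were low at 90 min. It was 4.16-fold lower with serum in control cells, the 1 member that was called there, and 2.35-fold lower in Omomer cells. The lines differed by 1.56-fold at 0 min, with Omomer lower, and by 1.14-fold at 90 min. Values at 90 min lie so near the floor that a floor 2 times as high reduced the ratio in control cells to 2.15-fold. The other probe set of Eif2ak2 was under the floor on all arrays.

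Eef2k, the kinase that inactivates eEF2, read 3225 and 2566 at 0 min in control and Omomer cells, and 1696 and 1189 at 90 min. It was 1.90-fold lower with serum in control and 2.16-fold lower in Omomer cells. Its dimmer probe set read 2065 and 1295 at 0 min and was under the floor in both lines at 90 min, at least 1.97-fold lower with serum in control cells. Both probe sets of Eef2k thus stood lower at 90 min in each line. Eif2ak3 encodes PERK, the eIF2 kinase of the endoplasmic reticulum. Its 2 probe sets disagreed on serum in control cells, with 1.56-fold higher (1783 to 2788) and 1.03-fold lower (1922 to 1868), and in Omomer cells they were 1.41-fold and 1.68-fold lower, from 2599 to 1839 and from 2385 to 1419. Eif2ak1, the heme-regulated eIF2 kinase, read 1136, 1206, 375 and 1675 and so lay near the floor throughout.

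Vars1, the valyl-tRNA synthetase, is the one synthetase measured outside the EST series. It was under the floor at 0 min in both lines, with 254 in control and 933 in Omomer cells, and read 1257 and 1718 at 90 min. It was at least 1.64-fold higher with serum in Omomer and at least 1.20-fold in control cells, and 1.37-fold higher in Omomer than in control cells at 90 min.

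**Figure D2:**
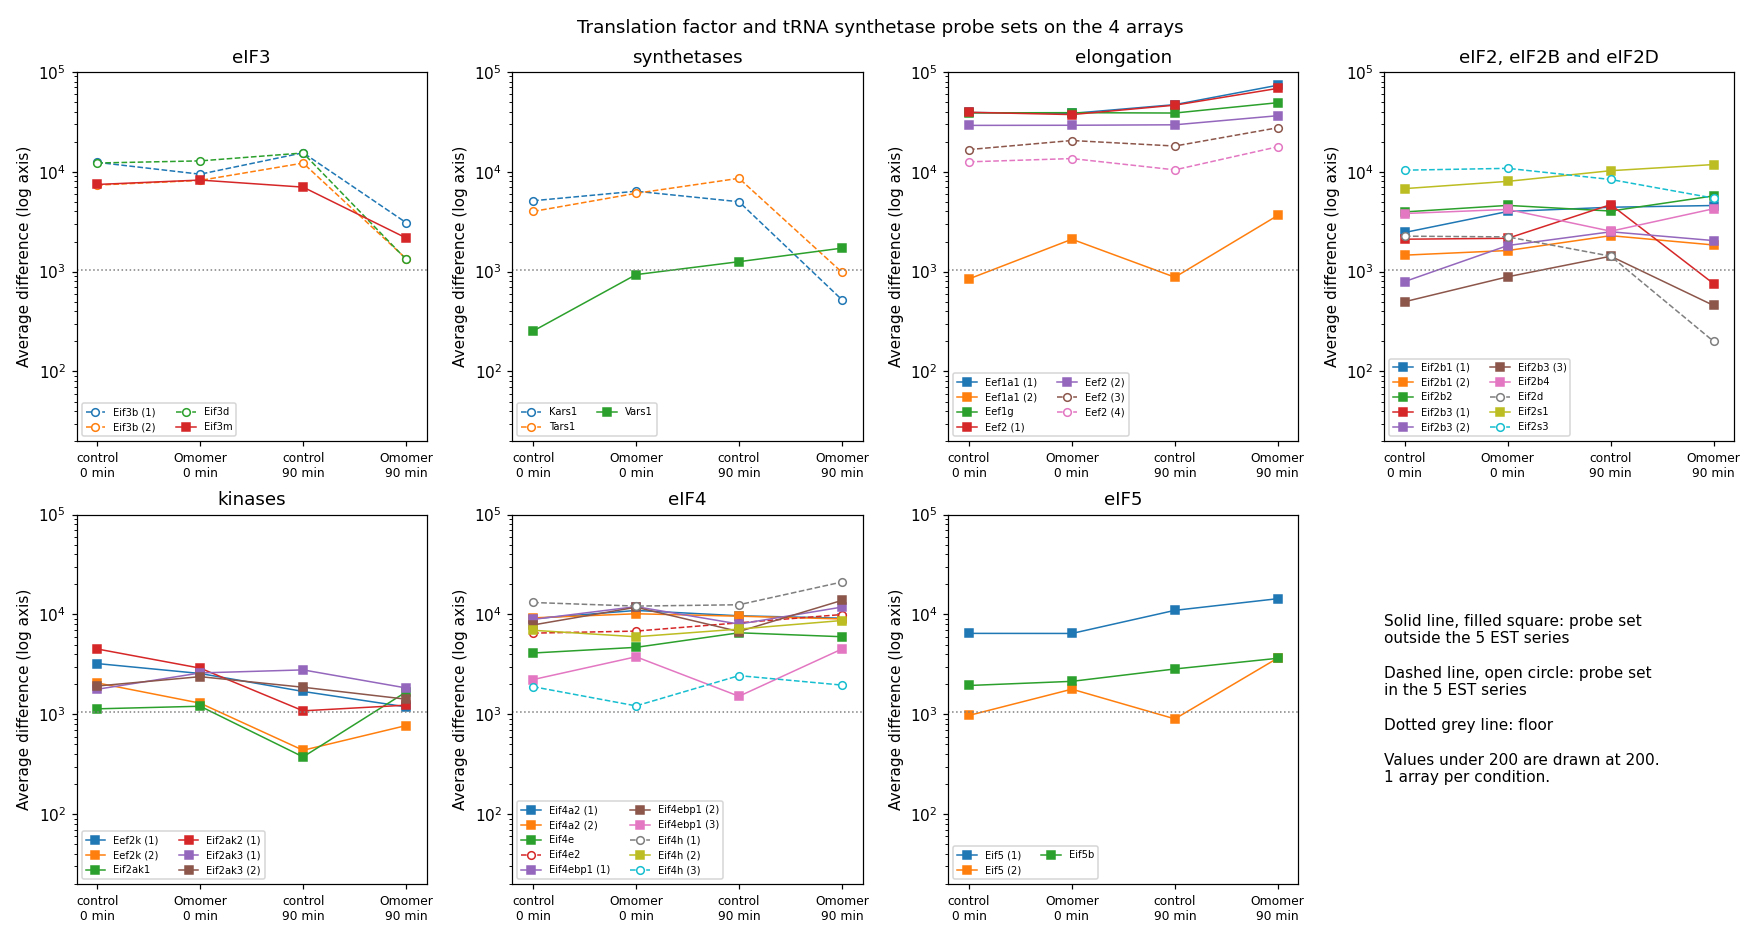
Average difference (y axis, log scale) of the 43 member probe sets above the floor on at least 1 array, in the 4 conditions (x axis), by role; lines join the values of 1 probe set, dashed lines with open circles are the 5 EST series, and numbers in brackets rank the probe sets of a gene by brightness. The 4 eIF3 probe sets drop on the Omomer 90 min array, to between 1330 and 3094, whereas the bright elongation factors, as deposited, are highest there; after quantile normalization Eef1g is not.

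The members of the EST series are described from here. Eif3b, a core subunit of eIF3 that holds the scaffold to the small ribosomal subunit, was measured by a pair of probe sets from 1 EST. The brighter read 12420 in control and 9449 in Omomer cells at 0 min, and 15483 and 3094 at 90 min. The dimmer read 7356, 8189, 12211 and 1349. Both were higher with serum in control cells, by 1.25-fold and 1.66-fold, and both were lowest on the Omomer 90 min array. There they were 5.00-fold and 9.05-fold lower than in control cells at 90 min, and 3.05-fold and 6.07-fold lower than in the same line at 0 min. The pair shares its source sequence and is not independent. The study also followed this gene by Real Time PCR, which was not analysed here.

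Eif3d, the eIF3 subunit with cap-binding activity, had the lowest ratio of all members. It read 12231 in control and 12844 in Omomer cells at 0 min, and 15410 and 1330 at 90 min. It was thus 1.26-fold higher with serum in control cells and 9.66-fold lower in Omomer cells, with 11.6-fold between the lines at 90 min. With Eif3m, all 4 probe sets of eIF3 subunits were at least 3-fold lower in Omomer cells at 90 min in each of the 3 comparisons that use that array, and their median log2 ratio between the lines was -2.75. Of the 4, 3 belong to the EST series, in which 27.2% of all probe sets were as low, and the Eif3b pair comes from 1 EST. Eif3m lies outside the series, but of the 7 probe sets with its ID start and a ratio, 28.6% were as low. Under quantile normalization Eif3m came to 2.97-fold lower between the lines at 90 min. The brighter Eif3b probe set came to 2.88-fold lower than in Omomer cells at 0 min, so that both ratios fell under the threshold.

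Both synthetases of the EST series were low on the same array. Kars1, the lysyl-tRNA synthetase, read 5123 and 6382 at 0 min in control and Omomer cells, and 5009 and 523 at 90 min, under the floor in Omomer cells. It was at least 4.78-fold lower than in control cells at 90 min, or at least 4.08-fold at the floor of that array alone, and unlike Tars1 it stood within 1.02-fold in control cells with serum. Tars1, the threonyl-tRNA synthetase, read 4002 and 6079 at 0 min, and 8597 and 985 at 90 min. It was 2.15-fold higher with serum in control cells, the highest ratio of the EST series members there, and at least 8.20-fold lower in Omomer than in control cells at 90 min. Kars1, Tars1, Eif3d and the dimmer probe set of Eif3b are on the gene list that the study drew from these arrays for low values in Omomer cells, so that their direction is not independent evidence.

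Other EST series members show that the series was not low throughout. Eef2 was read by a pair of series probe sets from 1 EST, at 16673, 20541, 18085 and 27578, and at 12562, 13549, 10443 and 17783, in control and Omomer cells at 0 min and then at 90 min. They were 1.52-fold and 1.70-fold higher in Omomer than in control cells at 90 min, on the same side as the 1.47-fold and 1.23-fold of the probe sets outside the series. Eif4h was read by another pair, at 13185, 12133, 12518 and 21139, and at 1893, 1216, 2442 and 1964. The brighter was 1.69-fold higher and the dimmer 1.24-fold lower at 90 min, around the 1.22-fold higher of the probe set outside. Eef2 and Eif4h are the 2 genes measured in and outside the series, and in neither did the series probe sets reach 3-fold. None of the 5 low probe sets has a counterpart of the same gene outside the series.

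Eif4e2, a relative of the cap-binding protein, read 6506, 6820, 8252 and 9990 and was 1.21-fold higher in Omomer cells at 90 min. Eif2s3, the gamma subunit of eIF2, read 10369, 10814, 8363 and 5442. It was 1.54-fold lower in Omomer than in control cells at 90 min and 1.99-fold lower than in Omomer cells at 0 min. Eif2d, a factor that can place initiator tRNA without eIF2, read 2264, 2227, 1427 and 182. It was 1.59-fold lower with serum in control cells and at least 2.12-fold lower in Omomer cells. In the series, then, Eif3b, Eif3d, Kars1 and Tars1 were called, Eif2s3 and Eif2d stood lower without reaching the threshold, and Eef2, Eif4e2 and the brighter Eif4h probe set stood higher.

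**Figure D3:**
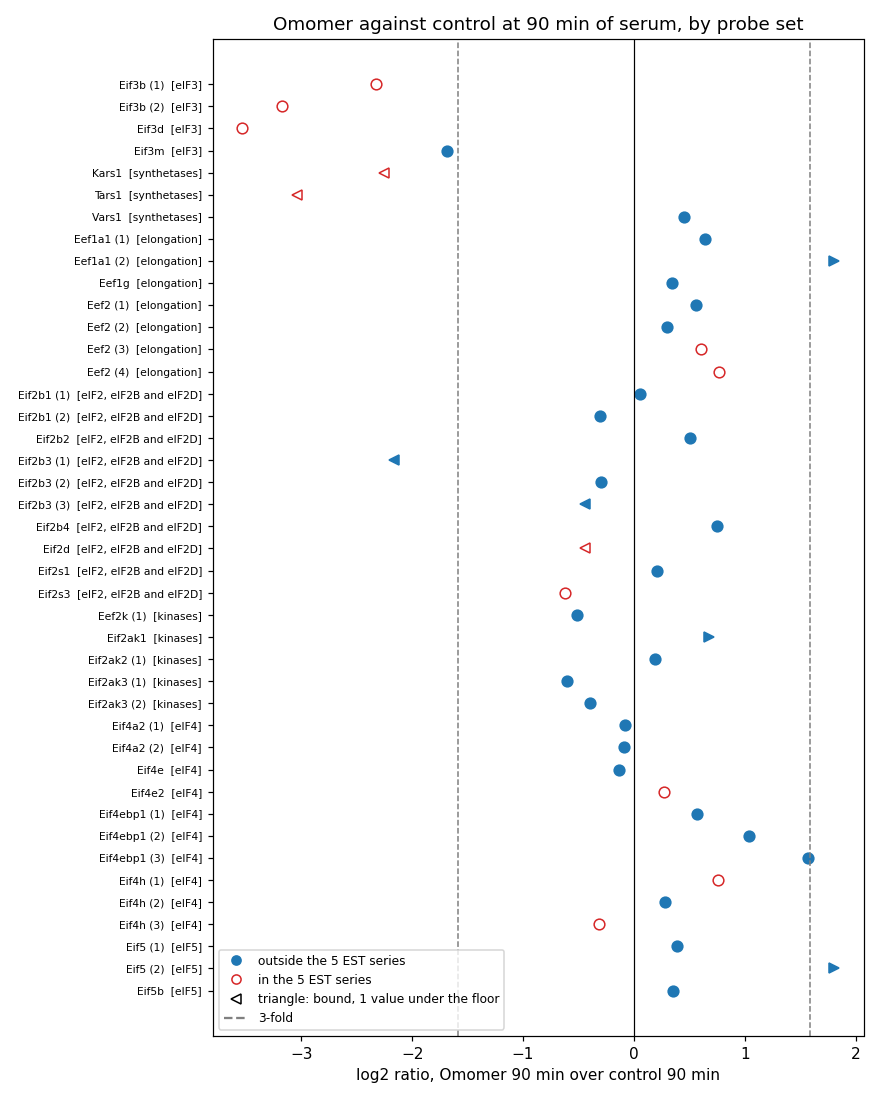
Log2 ratio of Omomer over control cells at 90 min (x axis) for the 42 members with a ratio (y axis, by role); filled blue symbols lie outside and open red ones in the 5 EST series, triangles are bounds, and dashed lines mark 3-fold. Beyond the left line lie 7 members, of which 5 are in the EST series, and beyond the right line 2, both bounds.

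The serum response of each line against its own 0 min array was set side by side, since these comparisons share no array. Across the 29 members outside the series with a ratio in control cells the median log2 ratio was 0.06, next to -0.04 for all probe sets outside the series, and in Omomer cells it was 0.24 over 30 members, next to 0.23. Eif5, Eif5b, Eif2s1 and Eif4e were higher and Eif2ak2 and Eef2k lower with serum in both lines. The eIF3 subunits, Kars1 and Tars1 went from near or above 0 in control cells to log2 ratios between -3.27 and -1.61 in Omomer cells. For Tars1 the log2 ratio was 1.10 in control cells and, as a bound, -2.54 in Omomer cells. The brightest probe set of Eif2b3 had log2 ratios of 1.15 in control and, as a bound, -1.04 in Omomer cells. The difference of responses could not be tested with 1 array each.

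**Figure D4:**
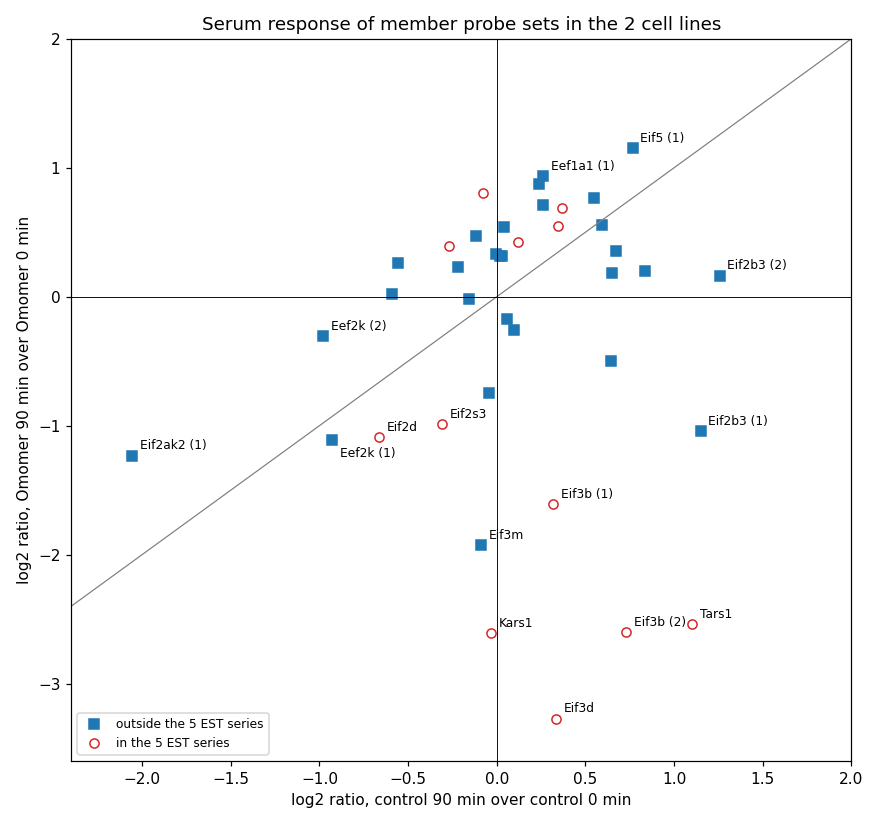
Log2 ratio of 90 min over 0 min in control cells (x axis) and in Omomer cells (y axis) for members with a ratio in both; blue squares lie outside and open red circles in the 5 EST series, ratios with 1 value under the floor are drawn at their bound, and the grey line marks equal ratios. The eIF3 probe sets, Kars1 and Tars1 lie far under the line, at -1.61 or lower on the y axis, and Eif2ak2 is at the left, at -2.06 on the x axis.

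Other genes of translation, from a list of synthetases, regulators and mitochondrial factors drawn up beside the members, are given for comparison. The array measured 14 of them with 18 probe sets. In control cells with serum none of 16 with a ratio reached 3-fold in either direction, against 1.93% of all probe sets higher and 1.81% lower. At 90 min between the lines, 3 of 16 were at least 3-fold lower and none higher, against 8.57% and 2.22%. Of the 3, 2 are among the 4 in the EST series, where 27.2% of all probe sets were lower. Aimp2, a scaffold of the synthetase complex, read 2181, 2847, 4466 and 377 in control and Omomer cells at 0 min and then at 90 min, and Ddx3x, a helicase of initiation, 14115, 17206, 15837 and 4067. These are the 2 in the EST series. Tufm, the mitochondrial elongation factor, lies outside it under an ID that begins with rc_AA86, and read 5488, 6390, 6843 and 1091, 6.27-fold lower in Omomer cells at 90 min. Of the 37 probe sets with that start and a ratio, Tufm included, 5.41% were at least 3-fold lower. Ppp1r15a, which directs a phosphatase to eIF2 and so reverses its kinases, was higher with serum in both lines. Its brighter probe set read 2715 and 3451 at 0 min in control and Omomer cells, and 6277 and 12716 at 90 min. That is 2.31-fold higher in control and 3.68-fold in Omomer cells against their own 0 min arrays. In that Omomer comparison 2 of 16 listed probe sets with a ratio were at least 3-fold higher and 2 lower, against 2.9% and 9.65% of all probe sets. Both higher ones are of Ppp1r15a and were made from the same sequence.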

How the data were processed

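The 4 arrays were hybridized with RNA of 4 conditions, 1 array each. The authors processed them with MAS 4 at default settings and deposited 1 table of intensity values, the average differences of 8799 probe sets, linear and partly below 0, with arrays scaled to nearly the same trimmed mean (2503 to 2505). No depth exists for arrays, and their number limits the precision. Of the 8799 probe sets, 59 manufacturer controls were left out. Genes were named from the platform annotation, in which 7006 probe sets have 1 symbol, 308 several and 1426 none. The 2 probe sets annotated to both Eif5 and its pseudogene were not members. Lower values were raised to the floor, and log2 ratios were taken for 5 comparisons. The floor and the ratio of floored values replace the MAS 4 Fold Change of the methods, and the 3-fold threshold is that of the methods. Any member could be named, with 4 values for each gene above the floor. Members, lists and the 5 EST series were chosen with earlier results of these data known. Alternatives were other floors, median scaling, quantile normalization, a filter, 1 probe set a gene, and leaving out the EST series. The promoter windows are those of RefSeq on GRCr8. The labels place 4-OHT in the whole starvation, and the methods start it shortly before serum. Python 3.11.15, numpy 2.4.6, pandas 2.3.3, scipy 1.17.1 and matplotlib 3.10.9 were used.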

Additional observations from a re-analysis of the deposited data

Results flagged for a closer look

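For the dimmer probe set of Eif3b, in the EST series, the serum response went opposite ways in the lines, with at least 1.5-fold in each and all 4 values above the floor. The log2 ratio of 90 min over 0 min was 0.73 for control and -2.60 for Omomer, a difference of -3.33, Omomer minus control. This difference was not tested, since each condition has 1 array, and 29.6% of all EST series probe sets were at least 3-fold lower in the same Omomer comparison. The brighter Eif3b probe set, from the same EST, was 3.05-fold lower in Omomer cells. In control cells it was 1.25-fold higher and so did not reach 1.5-fold.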

How the results depend on the processing

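No paired analysis was possible because each condition has 1 array. Counts of members at least 3-fold different depended on the EST series and on the floor. With the floor at 0.5 times its value, 1 member was higher and 2 lower in control cells at 90 min over 0 min, and at 2 times the floor 0 were lower. At 2 times the floor, 0 were higher and 4 lower in Omomer cells at 90 min over control at 0 min, and 0 were higher over control at 90 min. In these 2 comparisons 0 members were higher also with the floor of each array, with both values above the floor, and with the brightest probe set of each gene; with both values above the floor 4 were lower at 90 min between the lines. Without the EST series, 2 members were lower in each of these 2 comparisons and 1 in Omomer cells at 90 min over 0 min. Over all comparisons 25 member ratios were called; 25 of them were called also under median scaling, 23 under quantile normalization, 21 with the floor of each array and 14 at 2 times the floor. None changed sign. The called ratios of Eif3m and Eif3d kept 3-fold at 2 times the floor, while those of Kars1 between the lines at 90 min came to 2.39-fold. For the brightest Eif2b3 probe set the log2 ratio in the same comparison came to -1.16 and was not called either. All values of Eif3m lay above that higher floor. Under quantile normalization its ratio between the lines at 90 min came to 2.97-fold and was no longer called. The cause of these shifts, other than the values set to the floor, was not tested.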

Other observations

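The 2 probe sets annotated to both Eif5 and its pseudogene read 10478 and 6950 in control and 11699 and 8835 in Omomer cells at 0 min, and 19081 and 12124 in control and 19648 and 19924 in Omomer cells at 90 min. They were 1.82-fold and 1.74-fold higher with serum in control cells, and 1.68-fold and 2.26-fold higher in Omomer cells.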
